A study of Mus musculus with 10 samples.

Results

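The Klf transcription factors described here are Klf2, Klf3, Klf4, Klf5, Klf6, Klf9 and Klf10, 7 of the 33243 genes listed in at least 1 single-cell RNA-seq library of embryonic mouse backskin. They were selected by their own measured levels. For each library, unique molecular identifiers (UMIs, 1 per captured transcript) were summed over cells that passed simple marker gates, and the UMIs of each gene were divided by that sum and given as counts per 1000000 (CPM). The gates that entered the selection were basal keratinocytes (at least 10 UMIs of Krt5 and Krt14, under 10 of Krt1 and Krt10), suprabasal keratinocytes (at least 20 of Krt1 and Krt10) and fibroblasts (at least 30 of Col1a1 and Col3a1, under 10 of Krt5 and Krt14). Levels and genotype differences in these 3 gates chose the members, so they are given as a description with no test.

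The 10 libraries came from total backskin at the stages E15.5, E16.5 and E17.5, in days of embryonic development. In MOF cKO embryos (MOFfl/fl/K14Cre), the acetyltransferase MOF, encoded by Kat8, was deleted by a Cre driven from the Krt14 promoter, which is active in surface epithelium. In the QPC cKO embryo (QPCfl/fl/K14Cre), the same Cre deleted QPC, encoded by Uqcrq, a subunit of mitochondrial complex III. The controls are labelled by genotype as Control only, and were wild-type or heterozygous littermates according to the study. E15.5 and E16.5 each had 2 control and 2 MOF cKO libraries, whereas E17.5 had 1 control and 1 QPC cKO library. The later-numbered MOF cKO embryo at the earliest stage was described in the study as mosaic for the H4K16ac mark that MOF writes. Per the labels, the 10x 3′ chemistry was of an older version at E16.5 than at E15.5 and E17.5, so levels are compared within a stage.

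The libraries held 13609345 to 203392303 UMIs. Between 716 and 10653 cells per library passed the filters, with median depths of 9600 to 22340 UMIs per cell. In basal cells the Kat8 level was 13.0 to 13.7 CPM in E15.5 controls and 10.3 to 13.4 in E15.5 MOF cKO, and 14.9 to 16.4 against 4.51 to 8.31 at E16.5. Kat8 was also lower in E15.5 MOF cKO fibroblasts, at 5.98 to 6.83 against 9.18 to 9.62 CPM in controls, and in endothelial cells, at 3.06 to 4.34 against 11.02 to 12.7, although neither belongs to the Krt14 lineage. These are 3′ tags, and the deleted part of the gene is not given in the sources used here, so they do not check the labels. Uqcrq in basal cells was 103 CPM in the E17.5 control against 45.7 in QPC cKO. Pairs of libraries shared at most 36 barcodes among kept cells. The study describes its MOF cKO libraries as pairs of control and MOF cKO embryos with littermate controls, without saying which libraries form a pair. Where both groups of a test held replicates, p-values measure the spread between libraries. Where a group held no replicate, its spread was assumed, and p-values do not measure the spread of a gene between libraries. In the comparisons within libraries, p-values measure the spread of the differences within them. The E16.5 MOF cKO libraries gave few epithelial cells, with 21 and 22 basal and 9 and 13 suprabasal cells, and every epithelial value at that stage rests on them. In summed cells, fewer transcripts per cell and more cells of a low-expressing state cannot be told apart.

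Krüppel-like factors bind GC-rich and CACCC-type DNA through a run of zinc fingers at their carboxyl end, and the less conserved remainder of each protein decides whether it activates or represses. In skin, Klf4 is required for the epidermal permeability barrier and is best known in differentiating cells, while Klf5 is linked to proliferating epithelial cells. Klf2 maintains quiescent endothelium and is induced by blood flow through the MEK5, ERK5 and MEF2 cascade, a route it shares with Klf4. Klf6 is broadly expressed and responds quickly to injury. Klf3 represses by recruiting CtBP, and Klf9 and Klf10 by recruiting SIN3A. Klf9 is induced by glucocorticoids, and Klf10 was first described as an early gene of TGF-beta signalling.

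The 250 bases before the RefSeq start (build GRCm38.p6) are printed for Klf2, Klf4 and Klf6, the 3 members called together in the endothelial test below. Capitals mark matches on either strand to the Klf-type box CACCC, to the GC box GGGCGG, to the inverted or direct CCAAT box, or to the MEF2 element. In the printed windows no match overlaps another, except for a pair of GC boxes before Klf4. The window of Klf2 lies at chr8:72318812-72319061 on the plus strand, that of Klf4 at chr4:55532476-55532725 on the minus strand, and that of Klf6 at chr13:5861239-5861488 on the plus strand. Each lies upstream of its gene in GENCODE, except for 29 bases of the Klf2 window and 7 of the Klf6 window, which fall inside the annotated gene.
Klf2: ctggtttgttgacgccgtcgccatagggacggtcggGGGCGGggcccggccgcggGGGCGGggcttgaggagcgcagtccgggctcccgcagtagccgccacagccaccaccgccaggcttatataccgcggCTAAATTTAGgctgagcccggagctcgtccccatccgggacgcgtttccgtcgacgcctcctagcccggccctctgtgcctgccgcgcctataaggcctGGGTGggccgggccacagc
Klf4: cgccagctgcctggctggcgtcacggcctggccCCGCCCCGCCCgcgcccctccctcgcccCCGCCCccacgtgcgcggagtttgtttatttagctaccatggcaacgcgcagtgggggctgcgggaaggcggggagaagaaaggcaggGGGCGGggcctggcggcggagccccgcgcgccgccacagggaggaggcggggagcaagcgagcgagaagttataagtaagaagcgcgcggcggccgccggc
Klf6: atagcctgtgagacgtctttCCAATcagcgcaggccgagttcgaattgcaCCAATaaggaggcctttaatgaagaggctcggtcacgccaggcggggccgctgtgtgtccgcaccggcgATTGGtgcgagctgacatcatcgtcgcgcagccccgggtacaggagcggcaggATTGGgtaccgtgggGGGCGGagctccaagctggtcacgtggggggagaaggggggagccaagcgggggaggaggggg
Klf2 carries 1 MEF2 match, starting 118 bases before the start, with 2 of GGGCGG and 1 of CACCC. Klf4 carries 4 GGGCGG matches, a pair of which overlap, and Klf6 has 4 of CCAAT and 1 of GGGCGG. Among 32851 windows of this length, 52.0% hold CACCC, 32.7% GGGCGG, 33.8% CCAAT and 2.92% the MEF2 element, so the MEF2 match is the least common of these. A match describes letters only. The table held windows for 5 of the 7 members, Klf3 and Klf9 being the other two.

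Additional gates of at least 10 UMIs of lineage markers collected endothelial, immune and Schwann cells. Their marker lists were largely confined to them. The gates were themselves set on lineage markers, so the sums below describe the gating and are no separate check of cell identity. The 6 endothelial markers summed to 3461 to 5891 CPM in the endothelial gate and at most 101 in any other, the 6 immune markers to 3935 to 8811 CPM in the immune gate and at most 352 in any other, and the 6 Schwann markers to 874 to 2158 CPM in the Schwann gate and at most 65 in any other. The immune gate was rich in mast cells, whose 4 markers summed to 6264 to 50219 CPM there. The gate called suprabasal also held basal keratin transcripts, its basal marker list summing to 3934 to 32996 CPM, and Flg, a late granular gene, was at 0 there in all 4 E15.5 libraries.

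Each member had its own distribution over the 6 gates in E15.5 controls, given here as the level in replicates 2 and 3. Klf2, the flow-responsive factor, was at 999 and 874 CPM in endothelial cells and 287 and 289 in fibroblasts. It was lower in epithelium, at 127 and 114 CPM in basal and 89.9 and 82.4 in suprabasal cells, and lowest in Schwann cells at 22.8 and 46.9. Endothelium therefore stood above every other gate in both libraries, while fibroblasts and immune cells, at 322 and 156, overlapped.

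The epithelial members ran the other way. Klf5, although linked to proliferating epithelial cells, was higher in suprabasal cells, at 460 and 493 CPM, than in basal cells, at 196 and 199. It was at only 3.67 and 2.55 in endothelial cells, the steepest contrast among the 7 in these libraries. Klf3, the CtBP-dependent repressor, was also highest in suprabasal cells, at 363 and 417 CPM, against 160.3 and 176 in basal cells and 32.1 and 26.1 in immune cells. Klf4, the barrier factor, was at 470 and 495 CPM in suprabasal and 386 and 364 in basal cells, and no other gate exceeded 276. For these 3 genes, suprabasal, then basal, then the rest was the order in both libraries with no overlap between neighbours at the top. In later controls suprabasal cells stayed highest, but basal cells were not always next. At E16.5 Klf4 was at 100 to 130 CPM in fibroblasts and 103 to 121 in basal cells, which overlapped. In the E17.5 control Klf4 was at 341 CPM in fibroblasts and 319 in basal cells. Klf3 there was at 113 in endothelial and 105 in basal cells.

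Klf6 was the most even, at 719 and 641 CPM in endothelial, 648 and 663 in suprabasal and 642 and 584 in basal cells, with Schwann cells lowest at 283 and 256. Endothelial and suprabasal cells overlapped, as did basal and immune cells, so no single gate led. Klf9, the glucocorticoid-induced repressor, peaked in fibroblasts at 125 and 121 CPM, stood at 68.8 and 68.0 in basal cells and was 6.82 and 8.66 in endothelium. Klf10 was at 41.3 and 44.4 CPM in basal and 40.0 and 42.2 in suprabasal cells, which overlapped, and at 10.4 and 10.8 in fibroblasts. The evenness of Klf6 did not hold at the later stages. Its control mean at E16.5 ran from 420 CPM in immune to 58.4 in Schwann cells. In the E17.5 control it ran from 1023 CPM in immune to 162 in Schwann cells.

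**Figure D1:**
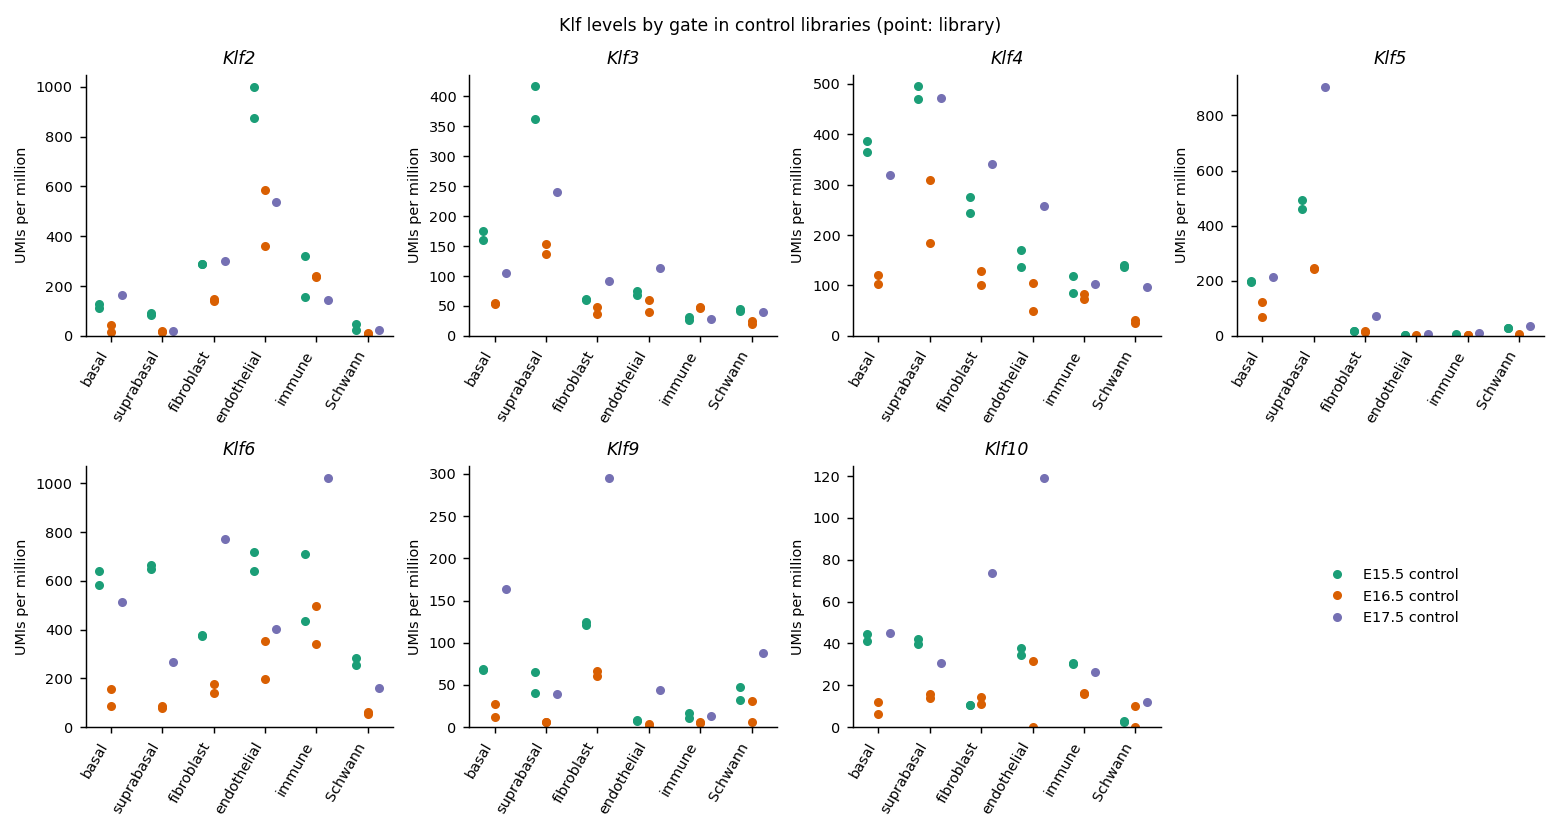
Levels of the 7 Klf genes (CPM, y axis) in 6 gates (x axis) of the control libraries, 1 point per library, coloured by stage. At E15.5 Klf2 stands at 874 CPM or more in endothelial cells alone, Klf5 at 460 or more in suprabasal cells alone, and Klf6 at 584 or more in both libraries of 3 gates.

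At E15.5, the MOF cKO libraries held less of nearly every member in epithelium. In basal cells, 6 of the 7 had both MOF cKO libraries below both controls, and Klf5 overlapped. Over all 14364 genes tested in that gate, 32.9% showed this pattern and 17.7% had both MOF cKO libraries above both controls. In suprabasal cells all 7 were lower, where 21.8% of 10819 genes were lower and 16.7% higher. These counts describe the selection itself.

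Klf2 in basal cells was 127 and 114 CPM in controls and 40.5 and 78.5 in MOF cKO, 49.4% of the control mean, with a fitted log2 difference of -0.91 (SE 0.23). Klf9 was 68.8 and 68.0 CPM in controls and 29.8 and 37.2 in MOF cKO, or 49.0% (log2 -0.89, SE 0.10). Klf10 was 41.3 and 44.4 against 21.7 and 20.1 CPM, or 48.9% (log2 -0.87, SE 0.19). In these 3 genes both MOF cKO libraries lay well below both controls.

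Klf3 was 160.3 and 176 CPM in control and 60.1 and 126 in MOF cKO basal cells (55.5% of control). Klf6 was 642 and 584 against 310 and 449 CPM (61.9%), and Klf4 386 and 364 against 189 and 284 CPM (63.0%). The mosaic embryo, replicate 6, sat between replicate 5 and the controls for all of these but Klf10. Klf5 overlapped, at 196 and 199 CPM in controls, 107 in MOF cKO replicate 5 and 201 in replicate 6, so that the mosaic embryo was at the control level. Marker levels in the gate moved with genotype too. Its basal markers summed to 15865 and 13712 CPM in controls and 6472 and 12437 in MOF cKO, and its fibroblast markers to 1899 and 1875 against 2796 and 2417, with replicate 6 between replicate 5 and the controls in both, and their part was not tested.

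The suprabasal cells of the same libraries gave a similar order. Klf9 was lowest relative to control, at 65.8 and 40.4 CPM in controls and 14.98 and 22.0 in MOF cKO (34.8%, log2 -1.42, SE 0.28). Klf3 was 363 and 417 against 136 and 259.6 CPM (50.8%, log2 -0.92, SE 0.24). Klf4, Klf5 and Klf6, at 64.0%, 73.1% and 77.8% of the control mean, were the least reduced, and in each of them replicate 6 lay closer to the controls than replicate 5 did. Fibroblast markers in this gate summed to 1020 and 687 CPM in controls and 2161 and 1930 in MOF cKO, and basal markers to 14858 and 8833 against 3934 and 8116, and their part was not tested.

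E15.5 fibroblasts, outside the Krt14 lineage, differed little. Their MOF cKO levels were 81.7% (Klf10) to 105% (Klf5) of the control mean. Klf9 was 125 and 121 CPM in controls and 115 and 104 in MOF cKO, and with Klf2, Klf3 and Klf10 made up the 4 of 7 with both MOF cKO libraries below both controls, a pattern of 20.4% of 16268 genes, while 26.3% were higher. With a 5% limit on mitochondrial UMIs, 2 of the 7 were lower.

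**Figure D2:**
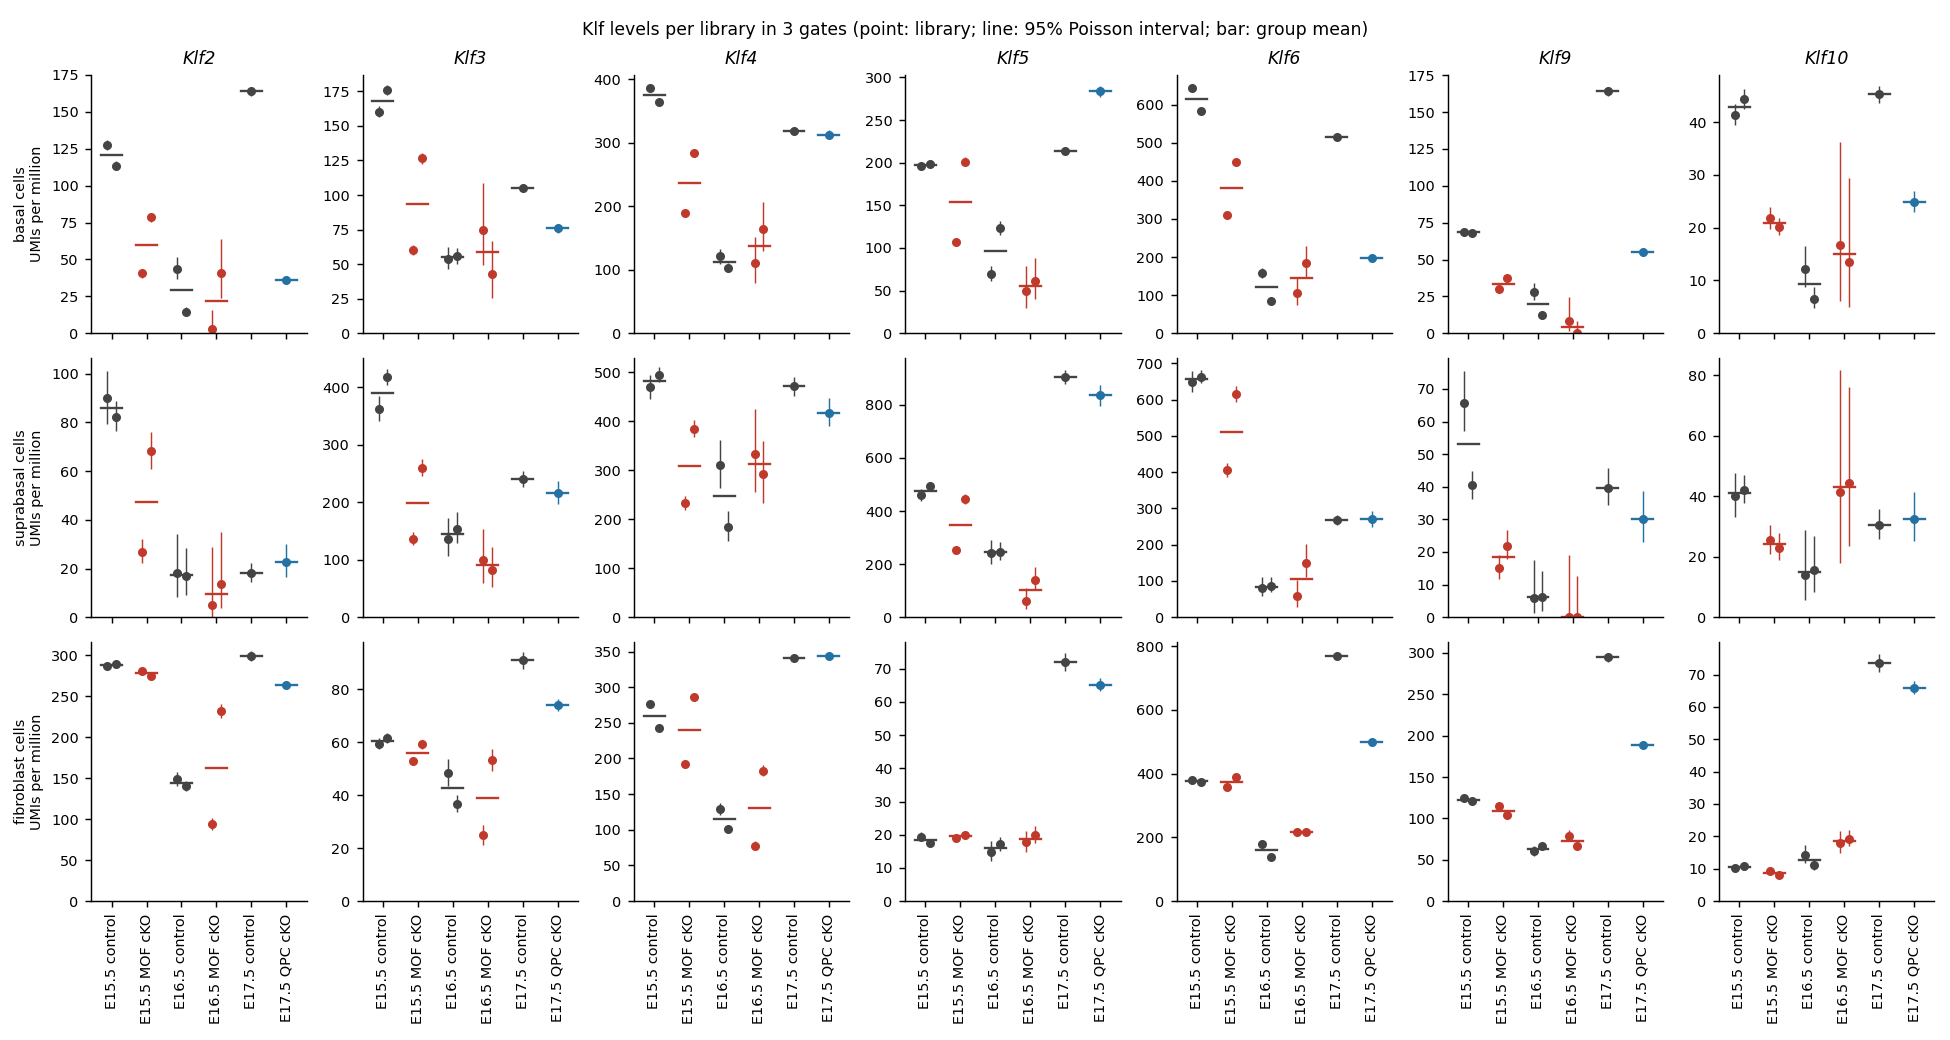
Levels of each Klf gene (CPM, y axis) by library in basal, suprabasal and fibroblast cells for the 6 groups (x axis), with 95% Poisson intervals and group means. Both E15.5 MOF cKO libraries lie below both controls for 6 genes in basal, 7 in suprabasal and 4 in fibroblast cells, and the E16.5 MOF cKO intervals in epithelium are wide.

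Genes of the immediate early and stress response, here named the dissociation list, moved alongside. A list of 16 such immediate early and stress genes (Fos, Jun, Egr1, Atf3, Hspa1a and others), which holds no Klf gene, summed in E15.5 basal cells to 15434 and 14556 CPM in controls and 6941 and 10180 in MOF cKO. In suprabasal cells it was 11758 and 11784 against 6435 and 9276 CPM. In fibroblasts, where the Klf genes differed little, it was 13631 and 12342 against 12990 and 13182. The list thus had the same order of libraries in epithelium as most members, including replicate 6 between replicate 5 and the controls. Its part in their levels was not tested. Whether dissociation or genotype moved the list was not tested either. The study reports reduced Fos, Jun, Junb and Atf3, all on the list, in basal cells of E16.5 MOF cKO and E17.5 QPC cKO. In the gates used here the list did not separate the E16.5 groups. It summed to 6616 and 3592 CPM in control and 3464 and 3974 in MOF cKO basal cells, which overlapped. In suprabasal cells it was 3146 and 1912 against 3016 and 3638 CPM, which overlapped too.

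At E16.5 the epithelial pattern was mixed. In basal cells Klf5 and Klf9 had both MOF cKO libraries below both controls, Klf10 had both above, and the other 4 overlapped. Over 9454 genes, 51.5% were lower and 10.6% higher. Klf5 was 69.4 and 124 CPM in controls and 49.9 and 60.9 in MOF cKO. Klf9 was 28.0 and 12.1 CPM in controls and 8.31 in MOF cKO replicate 1, where 3 UMIs were counted, and 0 in replicate 2, where a count of 0 allows up to 6.77 CPM. Klf10 was 12.2 and 6.49 CPM in controls against 16.6 and 13.5, where each MOF cKO library held 6 UMIs. Control replicate 1, the higher of the pair for Klf9, Klf2 and Klf10, was mixed with collagen-rich cells, the fibroblast markers of the gate summing to 9720 CPM there, 2261 in control replicate 2 and 906 and 1389 in MOF cKO. Without such cells Klf9 was 6.08 and 10.5 CPM in controls and 4.76 and 0 in MOF cKO, and Klf10 overlapped, at 10.3 and 5.54 against 9.52 and 21.3.

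The size of the E16.5 basal differences also rests on scaling, and for Klf2 so does the sign. The all-gene median of the fitted log2 difference was -0.11 with TMM factors and -0.64 with library size alone. Klf2, at 43.8 and 14.6 CPM in controls and 2.77 and 40.6 in MOF cKO, changed sign between these, from 0.21 to -0.36. Klf4, at 121 and 103 against 111 and 165 CPM, was 0.81 with TMM and 0.29 with library size alone. Klf6 was likewise 0.80 and 0.25, and for both genes the libraries overlapped.

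In E16.5 suprabasal cells, Klf5 was 243 and 247 CPM in controls and 62.3 and 140.5 in MOF cKO, and Klf3 was 137 and 154 against 98.6 and 82.2. Klf10 ran the other way, at 14.1 and 15.7 CPM against 41.5 and 44.5. Klf9 was at 6.03 and 6.05 CPM in controls and 0 in both MOF cKO libraries, which at 9 and 13 cells allow up to 15.6 and 10.3 CPM, so no difference was detectable. Klf2, at 18.1 and 16.9 CPM in controls and 5.19 and 13.7 in MOF cKO, did not overlap. Klf4, at 309.6 and 184 against 332 and 291, overlapped, and so did Klf6, at 80.4 and 87.2 against 57.1 and 151. The study names Klf4 among genes reduced in suprabasal cells of both MOF cKO and QPC cKO. It used clusters of integrated cells and not this gate. Of the 7, 4 had both MOF cKO libraries below both controls and 1 had both above, against 51.4% and 12.6% of 6084 genes. The 4 include Klf9, and Klf2, which rested on 1 and 4 UMIs in MOF cKO with counting intervals of up to 28.9 and 35.1 CPM, above both controls. Marker levels in the gate moved with genotype. The suprabasal list summed to 76289 and 72328 CPM in controls and 24555 and 24396 in MOF cKO. The basal list was 13967 and 14183 against 32996 and 25414, with 7 and 19 Lor-high cells against 1 and 0. Their part was not tested. The fits for this gate left out MOF cKO replicate 1, which had fewer than 10 cells.

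E16.5 fibroblasts differed in the opposite sense. Klf5, Klf6, Klf9 and Klf10 had both MOF cKO libraries above both controls, and none of the 7 had both below, where 18.1% of 12569 genes were higher and 35.8% lower. Klf6 was 178 and 139 CPM in controls and 218 and 216 in MOF cKO (137%), and Klf10 was 14.3 and 11.2 against 18.1 and 19.2 CPM (146%). Klf2 and Klf4 spread most, with 94.1 and 232 and with 77.8 and 182 CPM in the pair of MOF cKO libraries. Without MOF cKO replicate 2, 3 of the 7 were below both controls, as were 50.1% of all genes. The dissociation list in these cells was 7812 and 6124 CPM in controls and 11709 and 11388 in MOF cKO, and its part was not tested.

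Endothelial cells did not enter the selection, although they come from the same libraries. There the members were tested with edgeR's quasi-likelihood test over all genes with Benjamini-Hochberg adjustment. At E15.5, none of the 6 members tested was called (14 of 9537 genes, 0.147%), 3 had an unadjusted p under 0.05, and DESeq2 called none. Klf2 was 999 and 874 CPM in controls and 707 and 669.8 in MOF cKO, a log2 difference of -0.39 (SE 0.12, adjusted p = 0.206). Klf4 was 171 and 138 against 96.0 and 96.2 CPM (log2 -0.62, SE 0.13, adjusted p = 0.0633). Klf6 was 719 and 641 against 539.9 and 494 CPM (log2 -0.33, SE 0.12, adjusted p = 0.288). In these 3 genes both MOF cKO libraries lay below both controls, as in 26.8% of all genes, but none passed the threshold. Leaving out a library left 1 in its group, assumed to vary like the other group. In such fits Klf4 was called without control replicate 3 (adjusted p = 0.00167, with 153 of 10061 genes called), without MOF cKO replicate 5 (0.0495, with 131 of 9896) and without MOF cKO replicate 6 (0.0456, with 118 of 9818).

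At E16.5 the direction turned. Klf2, Klf4 and Klf6 were called higher in MOF cKO endothelial cells, 3 of 5 members tested against 271 of 5078 genes (5.34%). The test held 1 control library of 46 cells, assumed to vary like the 2 MOF cKO libraries of 16 cells each. Klf2 was 362 CPM in that control and 724 and 1084 in MOF cKO (log2 1.43, SE 0.33, adjusted p = 0.000642). Klf4 was 48.6 CPM against 90.9 and 154 (log2 1.43, SE 0.36, adjusted p = 0.00271), and Klf6 was 199 against 404 and 349 (log2 1.03, SE 0.30, adjusted p = 0.0151). These are the genes whose upstream windows are printed above.

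The remaining control library had 8 endothelial cells, below the 10 required. Its level was 587 CPM for Klf2, 104 for Klf4 and 352 for Klf6, so that Klf4 and Klf6 overlapped with MOF cKO and Klf2 did not. With that library included, 83 of 4314 genes (1.92%) and none of the members were called (adjusted p = 0.0983 for Klf2, 0.154 for Klf4 and 0.289 for Klf6). DESeq2, which called 0.532% of all genes, called Klf2 (adjusted p = 0.0117), did not call Klf6 (0.354) and gave no adjusted p for Klf4. The dissociation list in the endothelial gate was 3639 and 4115 CPM in controls and 7246 and 7395 in MOF cKO at E16.5, and 8299 and 7627 against 6120 and 5237 at E15.5. It had the same direction as Klf2 at both stages, and its part was not tested.

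**Figure D3:**
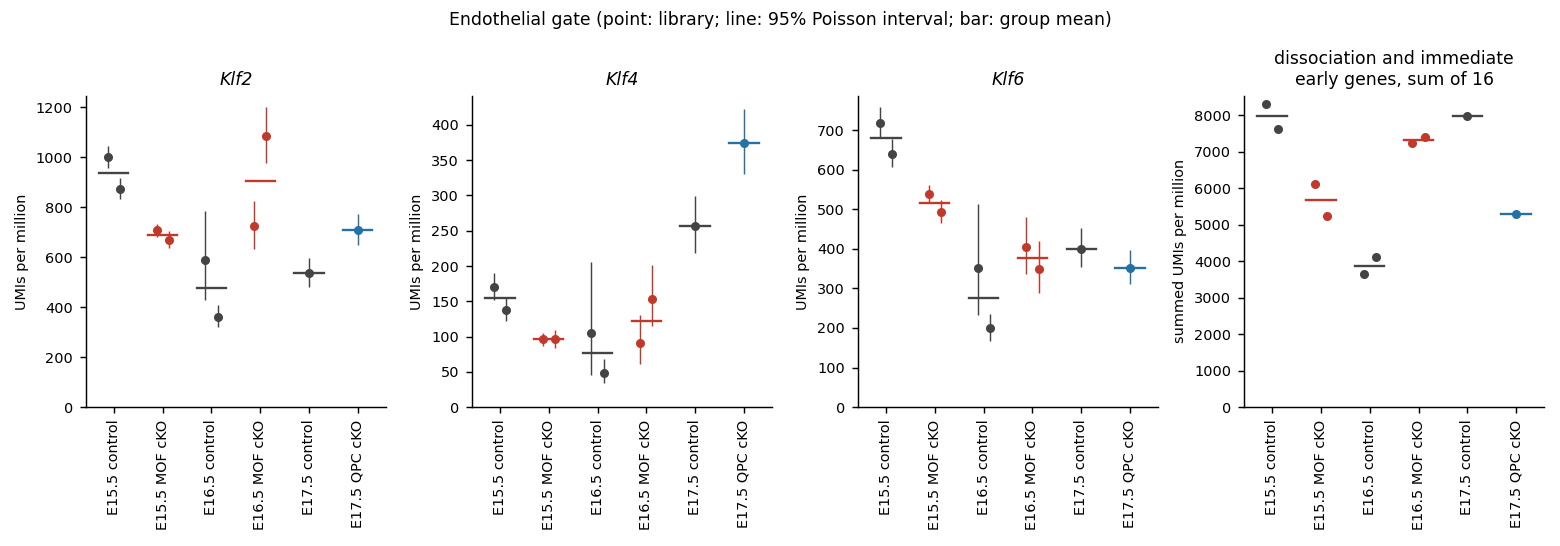
Levels of Klf2, Klf4 and Klf6 and the sum of 16 dissociation genes (CPM, y axis) in the endothelial gate by library for the 6 groups (x axis), with 95% Poisson intervals for the genes and group means. At E16.5 the higher Klf4 and Klf6 control points are the library of 8 cells, and the dissociation sum is 7246 and 7395 in MOF cKO against 3639 and 4115 in controls.

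At E15.5 none of 59 list genes was called by edgeR in endothelial cells, 15 had an unadjusted p under 0.05, and DESeq2 called Fos. At E16.5, of 45 list genes tested, 10 were higher and none lower. With the 8-cell control library 4 of 37 were higher, Ier3, Atf3, Socs3 and Egr1, and DESeq2 called 4 and gave no adjusted p for 28. Of the 6 Klf2-linked endothelial genes tested, Thbd, which encodes the anticoagulant thrombomodulin, was called, at 30.1 CPM in the control and 103 and 63.2 in MOF cKO (log2 1.57, SE 0.41, adjusted p = 0.00479). Of the MEK5, ERK5 and MEF2 cascade upstream of Klf2, edgeR called 0 of 5 genes tested with 0 at an unadjusted p under 0.05, and DESeq2 called 0 and gave no adjusted p for 4. Klf13, another family member, was 81.6 CPM against 185 and 159.5 (log2 1.18, SE 0.32, adjusted p = 0.00657). Among dissociation genes 6 of 14 were called, led by Ier3 at 77.3 CPM against 433 and 283 (log2 2.32, SE 0.33). Sgk1, a glucocorticoid-induced kinase, and Tgfbr2, a TGF-beta receptor, completed the 10, at log2 1.10 (SE 0.31) and 1.03 (SE 0.31). With the 8-cell control library, the adjusted p was 0.0757 for Thbd, 0.0546 for Klf13, 0.0757 for Sgk1 and 0.0989 for Tgfbr2.

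Immune cells gave no call among the members. At E15.5 none of 7 was called by edgeR (184 of 11952 genes, 1.54%) or DESeq2, with 3 at an unadjusted p under 0.05. Klf10 came nearest, at 30.5 and 30.1 CPM in controls and 20.4 and 23.4 in MOF cKO (log2 -0.52, SE 0.11, adjusted p = 0.0919). Klf9 was 17.1 and 10.3 CPM against 4.83 and 8.94 (log2 -1.03, SE 0.34, adjusted p = 0.224) and was called without MOF cKO replicate 6 (0.0411, with 302 of 12100 genes called). Klf6, at 711 and 435 against 434 and 489 CPM, was called without control replicate 3 (0.0357, with 197 of 12590), each group so reduced holding 1 library. At E16.5 none of 5 was called (105 of 8181 genes, 1.28%), none had an unadjusted p under 0.05, and DESeq2 called none.

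The sum of the mast cell markers (the mast list) in the immune gate moved with genotype. It was 27608 and 18792 CPM in E16.5 controls and 6264 and 10570 in MOF cKO, and 25077 and 25701 against 15494 and 17918 at E15.5. The dissociation list in E15.5 immune cells was 11588 and 9586 CPM in controls and 7736 and 8914 in MOF cKO. Their part was not tested. Among list genes, 4 of 63 were lower at E15.5, namely Hes1, Smad7, Hspa1b and Ier3. DESeq2 called 10, against 315 of 11952 genes, adding the dissociation genes Dnajb1, Egr1, Hspa1a, Ier2 and Jun, which were lower, and the corepressor gene Hdac1, which was higher. Smad7, the TGF-beta feedback inhibitor, was 111 and 101 CPM in controls and 68.8 and 63.4 in MOF cKO (log2 -0.73, SE 0.11, adjusted p = 0.0359). At E16.5, 2 of 51 were higher. Sgk1 was 7.13 and 7.22 CPM against 49.9 and 38.8 (log2 2.64, SE 0.39, adjusted p = 0.0311), and Tgfbi, a TGF-beta-induced matrix gene, was 146 and 114 against 512 and 372 (log2 1.84, SE 0.27, adjusted p = 0.0313).

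Schwann cells also gave none, 0 of 6 members at E15.5 (0 of 9210 genes, 0%) and 0 of 3 at E16.5 (89 of 3092, 2.88%). DESeq2 called no member at either stage, and 1 and 0 members had an unadjusted p under 0.05. Klf6 at E15.5 was 283 and 256 CPM in controls and 223 and 171 in MOF cKO (log2 -0.37, SE 0.15, adjusted p = 0.571), and it was called without MOF cKO replicate 5 (0.00925, with 174 of 9681 genes called), which left 1 MOF cKO library. At E16.5 each library had 9 to 18 Schwann cells, and the test held 1 control library of 13 cells, assumed to vary like the MOF cKO pair. Of 23 list genes 6 were higher, all from the dissociation list, among them Socs3 at log2 3.09 (SE 0.62), and DESeq2 called none of the 23. With the 9-cell control included, 4 of 20 were higher, Socs3 (log2 2.87, SE 0.39), Zfp36, Dusp1 and Btg2, against 1.97% of all genes. The dissociation list summed to 2629 CPM in that library and 1447 in the other control, and to 3591 and 7804 in MOF cKO. None of 47 list genes was called at E15.5, by DESeq2 either, with 7 at an unadjusted p under 0.05.

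Within suprabasal cells of the controls, cells rich in loricrin (Lor, a late cornified envelope gene) were compared with the others of the same library, a division the selection did not use. Lor-high cells had at least 10 Lor UMIs per 10000. Of the controls, 3 libraries had 10 or more cells on both sides, with 11, 16 and 19 Lor-high cells. Klf4 was higher and Klf5 lower in Lor-high cells. Of 5710 genes, 1076 (18.8%) were called, and 2 of the 7 members.

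Klf4 was 731, 771 and 284 CPM in Lor-high cells of E15.5 control replicates 2 and 3 and E16.5 control replicate 2, and 459.5, 486 and 153 in the Lor-low cells of the same libraries. It was higher in 3 of 3 (log2 0.97, SE 0.27, adjusted p = 0.0186). Klf5 was 102, 275 and 36.2 CPM in Lor-high and 475, 501 and 312 in Lor-low cells, lower in 3 of 3 (log2 -1.62, SE 0.36, adjusted p = 0.00498). The direction of each gene was thus shared by all 3 libraries at both stages.

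Klf6 was lower in 3 of 3 without passing the threshold (log2 -0.79, SE 0.32, adjusted p = 0.0998). It passed when the Lor limit was 30 per 10000 UMIs (log2 -1.47, adjusted p = 0.00257). Klf3 was 221, 233 and 196 CPM in Lor-high against 368, 423 and 141 in Lor-low cells, lower in 2 of 3 libraries (log2 -0.17, SE 0.32). Klf2, Klf9 and Klf10 had adjusted p-values of 0.692, 0.372 and 0.647. Lor-high cells were shallower, with a median of 9349 against 20027 UMIs in E15.5 control replicate 2. Klf4 was not called without any 1 of the 3 libraries (adjusted p from 0.0527 to 0.208), and Klf5 was not called without E16.5 control replicate 2 (0.0955). With library size alone as the scaling, which moved the all-gene median from -0.17 to -0.39, Klf4 kept its direction (log2 0.74, adjusted p = 0.0723) and Klf6 was called (adjusted p = 0.0364).

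Of 11 differentiation regulators tested, 2 were higher and 3 lower in Lor-high cells, as were 715 and 361 of 5710 genes. Of 46 list genes, 6 were higher and 9 lower in Lor-high cells. Sp6, a family member named epiprofin, rose by log2 3.38 (SE 0.44, adjusted p = 2.95e-05). The glucocorticoid-induced Tsc22d3 rose by 2.75 (SE 0.37), Cebpb and Grhl1, regulators of late differentiation, by 1.71 (SE 0.32) and 1.38 (SE 0.33), and the stress chaperone Hspa1a and the corepressor Sin3b by 2.23 (SE 0.40) and 1.01 (SE 0.31). Hes1 (log2 -1.92), Trp63, the master regulator of stratified epithelium (-1.92), and Notch1 (-1.61) fell, as did Klf13 (-1.07). The dissociation genes that fell were Socs3 (-2.67), Atf3 (-1.81), Jun (-1.51), Fos (-1.18) and Egr1 (-1.11).

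Cycling basal cells were compared with non-cycling ones within each of the 5 control libraries. The basal gates of E16.5 control replicate 1 and the E17.5 control were mixed with collagen-rich cells, which the levels below include. Fibroblast markers summed there to 9720 and 30716 CPM. Cycling cells had at least 3 UMIs of Mki67 and Top2a, non-cycling cells none, and all at least 5000 UMIs. Klf5 and Klf3 were lower in cycling cells, 2 of 7 members against 2018 of 13801 genes (14.6%). For Klf5 the cycling and non-cycling levels were 179 and 236 CPM in E15.5 control replicate 2, 183 and 227 in replicate 3, 60.8 and 85.7 in E16.5 control replicate 1, 111 and 138 in replicate 2, and 181 and 222 in the E17.5 control. It was lower in 5 of 5 libraries (log2 -0.39, SE 0.05, adjusted p = 0.000579).

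Klf3 was also lower in 5 of 5, from 53.9 against 54.8 CPM in E16.5 control replicate 1 to 148 against 187 in E15.5 control replicate 2 (log2 -0.32, SE 0.06, adjusted p = 0.00894). Klf4 was lower in 4 of 5 (log2 -0.31, SE 0.11, adjusted p = 0.0867), as were Klf9 (log2 -0.37, adjusted p = 0.0900) and Klf10 (log2 -0.21, adjusted p = 0.165). Klf2 and Klf6 were lower in 3 of 5. Klf3 was not called without E15.5 control replicate 2 (adjusted p = 0.0648), and without the E17.5 control Klf10 was called (0.0437). Cycling cells were deeper, with medians of 19319 against 12877 UMIs in E15.5 control replicate 2.

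**Figure D4:**
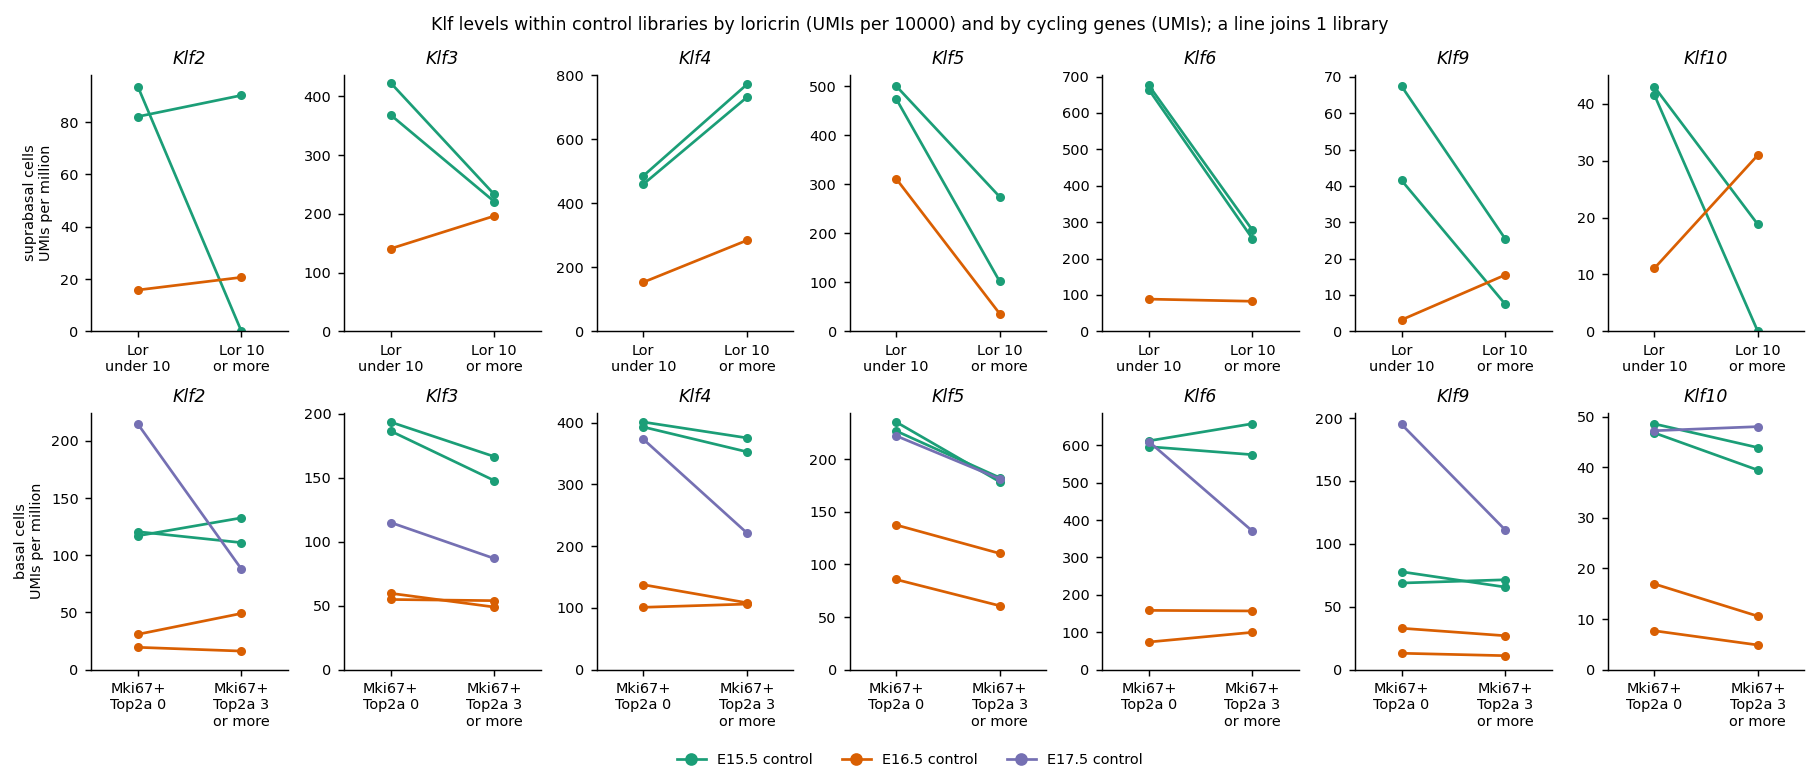
Levels of the 7 Klf genes (CPM, y axis) in Lor-low and Lor-high suprabasal cells (upper row) and in non-cycling and cycling basal cells (lower row), each line joining the 2 sums of 1 control library. Klf4 is higher and Klf5 lower in Lor-high cells of 3 of 3 libraries, and Klf5 and Klf3 are lower in cycling cells of 5 of 5.

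Among 79 list genes in the cycling comparison, 5 were higher and 13 lower. The corepressor genes Hdac1 (log2 0.33, SE 0.06), Sin3a (0.39, SE 0.07) and Ctbp1 (0.18, SE 0.05), partners of the repressive members, were higher in cycling cells, as were Sp1 (0.47, SE 0.12) and Sp3 (0.25, SE 0.07). Of 12 differentiation regulators, 4 were lower, Zfp750 (log2 -1.09), Cebpb (-0.47), Ovol1 (-0.47) and Hes1 (-0.22). Sgk1 (-0.49) and Mef2a (-0.17) were lower too. Of 16 dissociation genes, 6 were also lower, among them Zfp36 (-0.39) and Ier3 (-0.37), and their part in the Klf values was not tested.

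The other 19 Klf and Sp genes and the pathway lists were tested between genotypes in the 3 gates of the selection. By edgeR, no list gene was called at E15.5 in basal (77 tested, 30 at an unadjusted p under 0.05), suprabasal (69 and 16) or fibroblast cells (78 and 23), where 0%, 0% and 0% of all genes were called. DESeq2 called 6, 4 and 10, against 0.828%, 0.453% and 3.04% of all genes. Without the mosaic MOF cKO replicate 6, edgeR called 58 list genes in basal and 22 in suprabasal cells, where 49.4% of all genes in the first and 1762 of 11374 genes in the second were called. Without replicate 5 the counts were 26 and 4, against 4.97% and 0.337%. The DESeq2 calls in basal cells were Atf3, Fosb, Klf13, Nr4a1, Vcam1 and Zbtb16, and Klf7 and Sp5 were the family members in fibroblasts. At E16.5 edgeR called none of 66 in basal cells (17 at an unadjusted p under 0.05, and 0.243% of all genes) and none of 47 in suprabasal cells (13, and 0.493%), while DESeq2 called 3 (Grhl1, Hspa1a and Klf7) and 0, against 3.16% and 0.805% of all genes.

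E16.5 fibroblasts were the exception, with 8 of 70 list genes higher and none lower (583 of 12569 genes, 4.64%). Socs3, a cytokine feedback inhibitor, was 76.5 and 42.4 CPM in controls and 256 and 209 in MOF cKO (log2 2.13, SE 0.27, adjusted p = 0.0299). Tgfbi was 15.4 and 15.3 against 62.0 and 40.6 CPM (log2 1.86, SE 0.26, adjusted p = 0.0335), and Sgk1 11.4 and 7.97 against 26.2 and 19.96 CPM (log2 1.40, SE 0.24, adjusted p = 0.0414). The other 5, like Socs3 itself, were on the dissociation list, Junb (log2 0.93), Egr1 (0.94), Dusp1 (0.83), Nr4a1 (0.74) and Btg2 (0.90). Immune markers in this gate summed to 12.4 and 21.0 CPM in controls and 52.4 and 129 in MOF cKO, and their part was not tested. Without control replicate 2, none of 12646 genes and so no list gene was called. The list calls were 5 without control replicate 1 (369 of 13414 genes), 1 without MOF cKO replicate 1 (138 of 13412) and 2 without MOF cKO replicate 2 (187 of 12503). With library size alone, which moved the all-gene median from 0.01 to -0.11, 4 were called.

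At E17.5 the QPC cKO was compared with its control as 1 library each, so ratios carry 95% intervals of counting error only and no test. The control's basal gate was mixed with collagen-rich cells, its 6 fibroblast markers summing to 30716 CPM against 5376 in QPC cKO. Each ratio is therefore given as gated and then without cells holding 10 or more UMIs of Col1a1 and Col3a1, which left 1049 of 2807 control and 916 of 1066 QPC cKO cells.

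Klf2 in basal cells was 164 CPM in control and 35.8 in QPC cKO, a ratio of 0.219 (0.205 to 0.234), and 29.3 against 13.4, a ratio of 0.456 (0.397 to 0.523), without collagen-rich cells. Klf6 was 515 against 197 CPM, a ratio of 0.382 (0.371 to 0.394) and then 0.676 (0.648 to 0.705), and Klf9 went from 0.336 to 0.776 (0.711 to 0.846). Removing those cells thus brought the ratios of these 3 genes, which are also expressed in fibroblasts, closer to 1. Klf5 turned, from 1.33 (1.29 to 1.37) to 0.877 (0.849 to 0.905). Klf3 stayed lower, at 0.723 and 0.649, Klf4 was 0.982 and 1.12, and Klf10 was 0.550 and 0.922 (0.808 to 1.05). The dissociation list was 9583 CPM in control and 5218 in QPC cKO basal cells and 7120 against 4541 in suprabasal cells, and its part was not tested.

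In suprabasal cells, Klf5 was at 903 CPM in control against 836 in QPC cKO, a ratio of 0.925 (0.875 to 0.978) that became 0.949 (0.892 to 1.01) without collagen-rich cells, and Klf4 was 471 against 418, a ratio of 0.886 (0.819 to 0.958). The intervals of the other 5 spanned 1. Of the 190 control suprabasal cells, 66 were collagen-rich, and without such cells Klf2 was at 1.56 (1.01 to 2.40). No Lor-high cell was found among the 190 control suprabasal cells, a count that allows up to 3 such cells. In fibroblasts Klf9 was 295 against 189 CPM, a ratio of 0.640 (0.624 to 0.657), and Klf6 0.647 (0.637 to 0.657). Klf4 was at 1.01 (0.989 to 1.03) and the other 4 between 0.815 and 0.906.

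Outside these gates, Klf2 in immune cells was 143 CPM in control against 450.4 in QPC cKO, a ratio of 3.15 (2.85 to 3.48), and Klf4 was 102 against 226, a ratio of 2.22 (1.96 to 2.52). Klf3 was at 2.002 (1.57 to 2.57) and Klf10 at 1.65 (1.27 to 2.17). Klf6 ran the other way, at 0.938 (0.894 to 0.985), and the intervals of Klf5 and Klf9 spanned 1. The mast list in this gate was 50219 CPM in control against 16280 in QPC cKO and the dissociation list 10857 against 14588, and their part was not tested. In endothelial cells Klf2 and Klf4 were at 1.32 (1.15 to 1.52) and 1.46 (1.20 to 1.78), while Klf10 was at 0.517 (0.348 to 0.759) and Klf9 at 0.351 (0.158 to 0.727), from 11 UMIs in QPC cKO. The dissociation list there was 7973 against 5277 CPM. In Schwann cells, 56 in control and 532 in QPC cKO, Klf6 was at 1.83 (1.57 to 2.14), and the intervals of the other 6 spanned 1. With a 5% mitochondrial limit Klf6 was at 1.67 (1.36 to 2.06), Klf3 at 1.83 (1.07 to 3.42) and Klf4 at 0.707 (0.541 to 0.937). Gate thresholds per 10000 UMIs gave only 35 control and 116 QPC cKO Schwann cells, so the size of this gate rests on how its thresholds are set. With them the Schwann ratio of Klf6 was 1.09 (0.919 to 1.295), while those of Klf4, at 0.529 (0.415 to 0.678), and Klf9, at 0.642 (0.491 to 0.844), lay below 1.

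**Figure D5:**
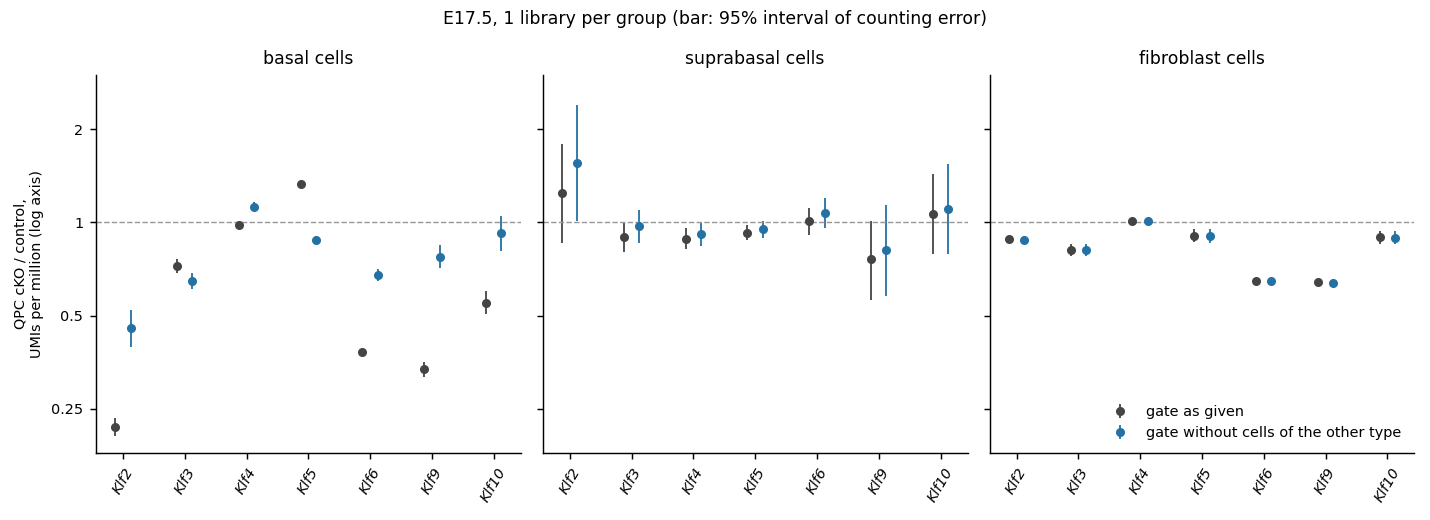
Ratio of QPC cKO to control levels (log y axis) of the 7 Klf genes (x axis) at E17.5 in 3 gates, with 95% intervals of counting error, as gated and without cells carrying transcripts of the other lineage. In basal cells Klf2 moves from 0.219 to 0.456 and Klf5 from 1.33 to 0.877, whereas every fibroblast ratio moves by less than 0.01.

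The share of cells with at least 1 UMI of a member was counted after thinning each cell to 3000 UMIs, which left out 2 to 4 shallower basal cells per E15.5 library. In E15.5 basal cells, all 7 members had both MOF cKO shares below both control shares, although for Klf5 the share of 40.5% in replicate 6 was within the counting interval of both controls (41.2% and 41.7%). Of all 14364 genes, 31.1% had both MOF cKO shares below both control shares and 14.8% had both above. The shares come from the same transcripts and cells that entered the selection, so they describe it and are no separate check. Klf9 was found in 16.9% and 16.8% of control and 7.90% and 7.97% of MOF cKO cells, and Klf2 in 22.6% and 19.1% against 7.79% and 14.3%. Klf6 was found in 67.4% and 63.3% against 50.1% and 57.4%. Before thinning, Klf9 was in 53.3% and 58.2% of control and 36.7% and 41.9% of MOF cKO cells. Endothelial cells, which hold little Klf5, had a Klf5 UMI in 0.943% to 1.85% of E15.5 cells after thinning, against 25.9% to 41.7% of basal cells, the median depths being 15548 to 20584 and 15800 to 19948 UMIs.

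The genes whose levels most resembled each member were found over 51 sums of 1 library and 1 gate, among 6227 genes, by Pearson's r of log2(CPM + 1). The sums share libraries and stages, so r is a description. Klf5 had the closest companions, with Ptprf at 0.93, Tfap2c at 0.92 and Ppl at 0.91. Klf2 was most like Elmo1 (0.89), Adamts9 (0.85) and BC028528 (0.83), and Klf9 like Dnajb4 (0.88), Ccdc127 (0.86) and Ncoa1 (0.82). Klf4 was most like Ahnak (0.85) and Hmgcs1 (0.83), with Klf3 next at 0.79, the one case of a member among the leading 3 genes of another. Klf3 was most like Sowahc (0.83), Klf6 like Mcl1 (0.81) and Klf10 like Pim3 (0.77).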

How the data were processed

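Single cells of total backskin were profiled with 10x Genomics 3′ libraries. The authors deposited whole-number UMI counts per gene and cell, made with Cell Ranger 1.3.1 and 6.1.2 on mm10 per the submitters' processing notes, which do not say which version served which library. Cells with more than 1000 and fewer than 6000 genes and under 10% mitochondrial UMIs were kept, and no doublet caller was run. UMIs were summed per library and gate. The endothelial, immune and Schwann gates also required fewer than 10 UMIs of the keratin pairs and fewer than 50 of Col1a1 and Col3a1. Sums of at least 10 cells were tested with edgeR 4.0.16 (quasi-likelihood, filterByExpr, TMM) in R 4.3.3, with Benjamini-Hochberg adjustment over all genes and a threshold of 0.05. DESeq2 1.42.0 was an alternative. The libraries within Lor and cycling comparisons were a block. Intervals and floors, a count of 0 allowing 3 counts, cover counting error only. Code was tested on artificial counts with known changes of 2-fold. Of these, 10.5% were recovered in E15.5 basal, 8% in E15.5 suprabasal and 42% to 69% in the other E15.5 gates. At E16.5, 0% to 6% were recovered in every gate. Within libraries it was 2% for the Lor and 77.5% for the cycling comparison. Where few were recovered, a gene not called may still differ.

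The 7 members and the gene lists were chosen with earlier results of these data known. Named list genes were up to 5 per list, direction and comparison, by smallest p among those past the threshold, and likeness was taken over sums of at least 20 cells. Genes called by DESeq2 alone, and a sixth gene of a list, were named outside this rule, after their values were seen. At E16.5, where groups share replicate numbers, deviations of same-numbered libraries correlated at -0.08 in basal, -0.02 in fibroblast and -0.13 in immune cells, so the numbers were not taken to pair the libraries. The values of 1 further list gene are not reported here.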

Additional observations from a re-analysis of the deposited data

Results flagged for a closer look

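The following levels moved in opposite directions at E15.5 and E16.5, every MOF cKO library lying below every control at the first stage and above every control at the second. The difference between the stages was not tested, and per the labels the stages differ in chemistry. Klf10 did so in 4 gates, where its E16.5 MOF cKO libraries held 6 and 6 UMIs in basal and 8 and 13 in suprabasal cells, 122 and 239 in fibroblasts and 32 and 39 in immune cells. In basal cells the E16.5 libraries overlapped without collagen-rich cells. Of all genes tested at both stages, 1.54% in basal, 1.23% in suprabasal, 1.26% in fibroblast, 1.5% in immune and 3.92% in endothelial cells did so. Genotype differences in basal, suprabasal and fibroblast cells chose the members, so the cases in those gates describe the selection itself. The Klf10 level of MOF cKO basal cells was first 48.9% and later 161% of control. The same pair was 58.9% and 289% in suprabasal cells, 81.7% and 146% in fibroblasts, and 72.3% and 138% in immune cells. Klf9 in fibroblasts was at 88.9% and 115%. Klf2 in endothelial cells was at 73.5% and 190.5%.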

How the results depend on the processing

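Of the counts recomputed under other settings, 144 stayed within 1.5 times the reported value and 47 did not. The settings with 5 cells, without the block, with crossed pairing and with gates free of collagen-rich cells at E17.5 were chosen after seeing the data. Members below control in E15.5 fibroblasts were 2 with a 5% mitochondrial limit against 4, and in E16.5 fibroblasts 0 to 3 when leaving out each library. Members called in E15.5 endothelial cells were 1 with library size only (49 of 9537 genes called), without a filter on low counts (258 of 16548) and with Col1a1 and Col3a1 under 20 (58 of 9463), and 0 to 1 when leaving out each library. In E16.5 endothelial cells they were 1 by DESeq2 and 0 with libraries of at least 5 cells, against 3. Leaving out each library gave 0 to 1 in E15.5 immune, Schwann and Lor-high cells. Without the block, 0 members were called in both the Lor and the cycling comparison, and without a filter 4 in the latter (2340 of 19793 genes). At E17.5, 1 suprabasal member was below 1 with a 5% mitochondrial limit, with thresholds per 10000 UMIs and without collagen-rich cells, against 2. It was Klf9, at 0.487 (0.279 to 0.803), under the first and Klf4 under the others.

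List genes called in E15.5 basal cells were 6 by DESeq2 and 0 to 58 when leaving out each library, the 58 without MOF cKO replicate 6. In E15.5 suprabasal cells they were 13 without a filter, 4 by DESeq2 and 0 to 22 when leaving out each library, and in E15.5 fibroblasts 7, 10 and 0 to 1. In E16.5 basal cells they were 1 with RLE factors, 8 without a filter, 3 by DESeq2, 0 to 2 when leaving out each library, 1 with the replicate block and 8 with crossed pairing. Over all genes the replicate block called 52 and crossed pairing 835 against 23 of 9454 in that gate. In E16.5 immune cells these settings called 210 and 283 against 105 of 8181. The study describes pairs with littermate controls but does not say which libraries form one. In E16.5 suprabasal cells 8 were called without a filter and 4 with libraries of at least 5 cells. In E16.5 fibroblasts they were 4 with library size only, 21 without a filter, 16 by DESeq2 and 0 to 5 when leaving out each library.

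Changes of sign in log2 differences were all in values not called under the main settings. Leaving out each library moved them over the following ranges. In E15.5 endothelial cells Klf3 ranged from -0.0041 to 0.19 and Klf10 ranged from -0.28 to 0.076. In E15.5 immune cells Klf6 ranged from -0.68 to 0.038, Klf4 from -0.39 to 0.094 and Klf2 from -1.06 to 0.080, each highest without control replicate 2. At E16.5 they were -0.038 to 0.72 for Klf4 and -0.90 to 0.19 for Klf2. In E15.5 Schwann cells Klf4 ranged from -0.49 to 0.072, Klf3 from -0.19 to 0.080 and Klf2 from -0.46 to 0.64. In the Lor comparison Klf3 ranged from -0.65 to 0.090, Klf10 from -1.64 to 0.015 and Klf2 from -0.62 to 0.35. In the cycling comparison Klf6 ranged from -0.22 to 0.049 and Klf2 from -0.49 to 0.031, both highest without the E17.5 control. With less collagen Klf3 was 0.061 in E16.5 endothelial, 0.13 in E15.5 Schwann and 0.041 in Lor-high cells, and Klf6 was 0.064 in cycling cells. E16.5 endothelial Klf3 was 0.063 with libraries of at least 5 cells, E15.5 Schwann Klf9 0.43 with a marker sum of 20, and in the Lor comparison Klf3 0.11 with a limit of 30 and Klf10 0.057 over all libraries. The cause was not tested. Klf values in E16.5 epithelium rest on 9 to 22 cells per MOF cKO library.

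With library size only, the split of higher and lower calls over all genes moved by over 10 percentage points in the following comparisons. It was 583 higher and 654 lower against 715 and 361 in the Lor comparison, and 1416 and 562 against 1235 and 783 in the cycling comparison. In MOF cKO endothelial cells it was 137 and 167 against 165 and 106 at E16.5, and 7 and 42 against 5 and 9 at E15.5. In E16.5 fibroblasts it was 346 and 491 against 305 and 278, in E16.5 suprabasal cells 46 and 27 against 28 and 2, and in E15.5 immune cells 106 and 39 against 104 and 80.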
